A study of Homo sapiens with 5 samples.

Results

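The genes described here are 10 known transcriptional targets of the tumour suppressor p53: CDKN1A, GADD45A, CCNG1, PLK3, PPM1D, PHLDA3, BBC3, TP53I3, GDF15 and IGFBP3. They were chosen by name as textbook targets of p53 after DNA damage, and all probes annotated to them were taken, which gave 13 probes for 10 genes among the 3048 probes and 2078 named genes of the array. TP53I3 had 4 probes and each of the others had 1. The cells were SK-MEL28, an established line from a human melanoma. They received either cisplatin, which forms platinum crosslinks in DNA, or cisplatin together with electroporation, in which an electric field makes the membrane permeable so that more drug enters. Per the labels, the field of 1300 V/cm was applied in 8 pulses, each lasting 100 µs, at 1 Hz. Treated RNA in the dye Cy5 was hybridised with RNA of untreated SK-MEL28 cells in Cy3 on the same two-colour oligonucleotide array, on 3 arrays for cisplatin (cisplatin 1 to 3) and 2 for the combination (electroporation 1 and 2). The scanner files number the channels without naming the dyes, so channel 1 was taken as Cy3 and channel 2 as Cy5, as the labels number them, and with the other order every sign below would turn. By the labels no array had its dyes exchanged, and no array held cells that were electroporated without the drug. The sources used here give neither the drug dose nor the time from treatment to RNA isolation. Replicates are not said to be separate cultures, so every p-value reflects array-to-array spread that may be technical.

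p53 is a transcription factor that is stabilised when DNA is damaged and then binds response elements near its target genes. Its targets halt the cell cycle, aid repair, dampen the response again, or start apoptosis, and some encode secreted proteins that act on the cell's surroundings. Cisplatin adducts are a well-known trigger of this response in cells with working p53, and SK-MEL28 is known to carry a mutated p53 gene.

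Neither treatment gave a call for any of the 10 genes. At an adjusted p under 0.05 in limma's test, 0 of the 13 probes were called after cisplatin, after the combination or in the difference between treatments, and so were 0 of all 3048 probes (0%) in each of these comparisons. Over the 10 genes, the median log2 ratio of treated over untreated cells was -0.0080 after cisplatin and 0.00018 after the combination, against -0.0025 and -0.0088 over all 2078 genes. IGFBP3 was the single gene above 0 on all 5 arrays, by 0.05 to 0.22 on the log2 scale. The probe of TP53I3 with the most signal was below 0 on all 5 arrays, by 0.07 to 0.97. Neither passed the test over all probes, of which 6.66% were above 0 on all 5 arrays and 9.42% below. The ratios are relative to the other RNA on each array, so a different amount of RNA per cell cannot be told from a different share of cells that carry it.

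Signal limits what can be read for many of these genes. A probe was counted as above background in a channel where 0.5 or more of its spots were brighter than their local background by 2 of its standard deviations. By this measure 6 to 10 of the 13 probes stood above background in the untreated channel of an array and 4 to 10 in the treated channel. GDF15, PPM1D and the first TP53I3 probe did so in both channels on all 5 arrays. CDKN1A and the fourth TP53I3 probe did so in neither channel on any array. The plot of signal over background shows every probe on every array.

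**Figure D1:**
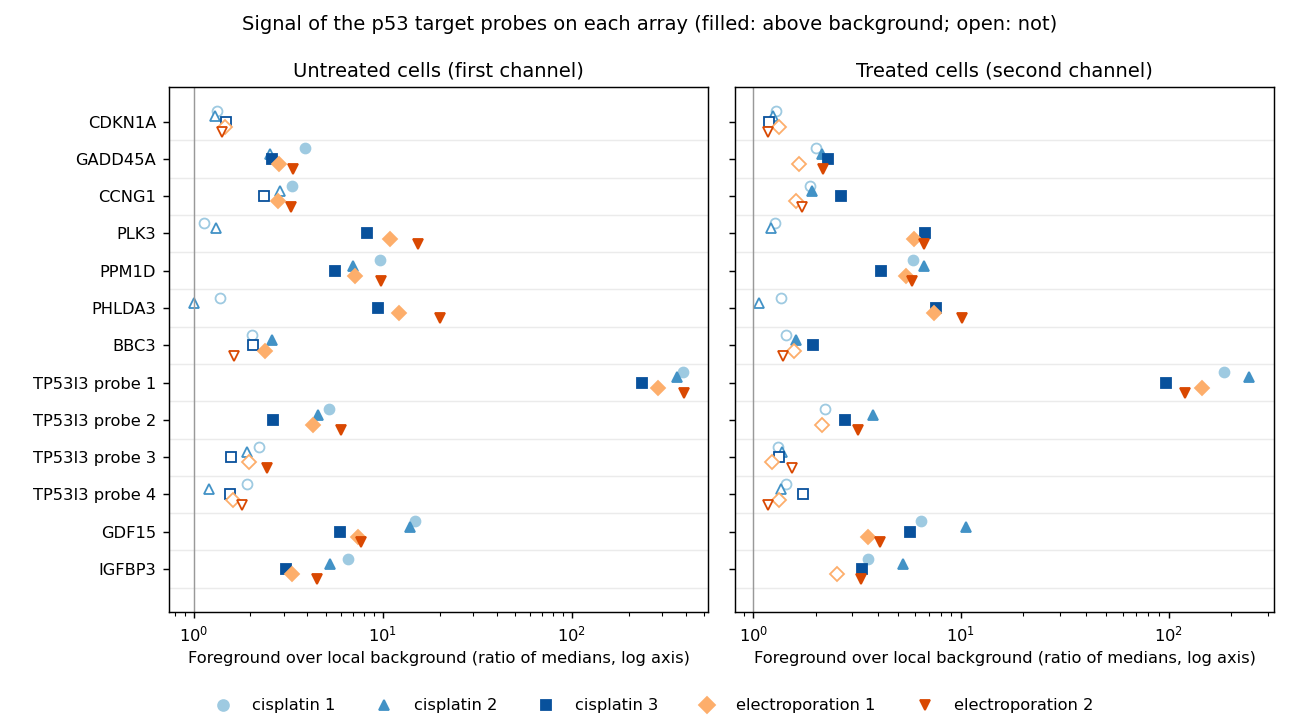
Median foreground over median local background (ratio, log axis) for each of the 13 probes on each of the 5 arrays, with untreated cells on the left and treated cells on the right; filled symbols are above background and open symbols are not. PLK3 and PHLDA3 lie near 1 on cisplatin 1 and 2 and at 5.97 or more on the other arrays, and CDKN1A never exceeds 1.48.

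Over all probes, 1535 to 1843 of 3048 stood above background in the untreated channel and 1216 to 1824 in the treated channel. The untreated channel split the arrays in a way that the treatments do not: cisplatin 1 and 2 correlated with each other at 0.975 and with the rest at 0.946 to 0.954, while cisplatin 3 and both electroporation arrays correlated at 0.979 to 0.983 (Pearson's r of log2 signal across 3048 probes, given as a description). The cisplatin group thus spans both sets. On electroporation 2, the last listed spot of 737 probes (24.2%) differed over 4-fold from the other spots of its probe in the untreated channel, against 4 to 35 probes on the other arrays. By this 4-fold measure it touched 4 of the 13 probes, TP53I3 probes 1 and 2, PPM1D and CCNG1. Their ratios on that array are given with and without that spot. Under the 4-fold limit, the last spot of TP53I3 probe 3 read 80 where its others had a median of 28. As a check of the labelled cell type, 6 of 9 measured melanocyte lineage markers stood above background in untreated cells on every array. These were MLANA, TYR, TYRP1, MITF, SOX10 and S100B, while RAB27A did so on 4 arrays, GPR143 on 1 and MCAM on none. Above background on every array were also 4 of 5 of epithelium, 3 of 5 of endothelium, 2 of 4 of leukocytes and 1 of 1 of fibroblasts. Untreated signal over background was 1525 to 3010 for the epithelial KRT19 and 87.8 to 212 for TYRP1, on different probes. The check thus does not single out the melanocyte lineage.

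CDKN1A encodes p21, the inhibitor of cyclin-dependent kinases through which p53 arrests the cell cycle. Its probe, printed 8 times, read median foregrounds of 14, 15.5 and 20 in untreated cells on cisplatin 1 to 3, against local backgrounds of 10.5, 12 and 13.5. Treated cells read 20, 17.5 and 19 on the same arrays, against 15.5, 14 and 16. On electroporation 1 and 2 the untreated channel read 20.5 and 18.5 and the treated channel 22 and 16.5. At least 0.5 of its spots exceeded background on none of the arrays in either channel, so no fold is given. Its log2 ratios of 0.05, 0.00 and -0.09 after cisplatin and 0.03 and 0.01 after the combination are ratios between channels that were not well above background.

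GADD45A, a damage-inducible protein that acts in repair and in arrest before mitosis, read 30.5 to 43 in untreated cells and 29 to 36.5 in treated cells over backgrounds of 11 to 17.5. Its log2 ratios were -0.06, -0.01 and 0.04 on the cisplatin arrays and -0.06 and 0.13 on the electroporation arrays. Both groups straddled 0 and overlapped. The limma estimates were -0.0097 (SE 0.048) for cisplatin and 0.034 (SE 0.058) for the combination. Both channels stood above background on cisplatin 3 and electroporation 2 only, so no fold interval is given.

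CCNG1 encodes cyclin G1, a cyclin that recruits a phosphatase to the p53 inhibitor and so takes part in switching p53 off. It read log2 ratios of -0.07, -0.09 and 0.09 after cisplatin and -0.13 and -0.12 after the combination. Both electroporation arrays lay below all cisplatin arrays, a pattern that 10.7% of all probes also had. On no array did both of its channels stand above background. The estimate for the combination was -0.13 (SE 0.054, adjusted p 0.514, n = 2 arrays). With the offset of 50 that stabilises dim ratios removed, it was -0.38 (0.593- to 0.999-fold, adjusted p 0.543), and with plain background subtraction -0.56. With the offset, the difference between treatments was -0.10 (SE 0.070, adjusted p 0.994). The untreated channel stood above background on both electroporation arrays and the treated channel on neither. The bound that this gives is at least 1.01-fold lower. Its last spot on electroporation 2 read 444 in the untreated channel, where the other spots had a median of 42, and that array read -0.10 without it.

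PLK3, a stress-activated kinase of the polo family, and PHLDA3, a protein with a pleckstrin homology domain that holds back AKT signalling, shared an uneven signal. PLK3 read 12 and 17 in untreated cells on cisplatin 1 and 2, but 112, 154 and 199.5 on cisplatin 3 and electroporation 1 and 2. In treated cells it read 19 and 17, then 107, 104.5 and 86.5. PHLDA3 read 14.5 and 13 in untreated cells on the first pair of arrays and 127, 182 and 251 on the other three. Its treated channel read 20.5 and 15, then 128.5, 123 and 136. Both genes were thus at background on cisplatin 1 and 2 in both channels and well above it on the remaining arrays, in untreated and treated cells alike. Of all 3048 probes, 20 (0.656%) had this pattern and 1 had the opposite one. The pattern follows the split between arrays described above and not the treatment.

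For these genes the cisplatin ratio therefore rests on cisplatin 3, where PLK3 read -0.08 and PHLDA3 0.02 on the log2 scale. After the combination PLK3 read 0.09 and -0.35, so the arrays disagreed in sign, and its estimate was -0.13 (SE 0.11). PHLDA3 read 0.07 and -0.06 with an estimate of 0.0082 (SE 0.054). Without cisplatin 1 and 2, PLK3 differed between the treatments by -0.045 on the log2 scale and PHLDA3 by -0.011, and neither was called.

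PPM1D encodes WIP1, a phosphatase that p53 induces and that dephosphorylates p53 and the damage kinases, a negative feedback. It was above background in both channels of every array, with 78 to 127.5 in untreated and 72.5 to 92.5 in treated cells. Its log2 ratios were 0.19, 0.10 and -0.14 after cisplatin. On the electroporation arrays it read 0.28 and 0.05. Of the 5 arrays 4 were above 0, and the groups overlapped. The estimates were 0.05 (SE 0.079, adjusted p 0.903) and 0.16 (SE 0.096, adjusted p 0.646). Without the offset, the 95% confidence intervals ran from 0.843- to 1.32-fold after cisplatin and from 0.924- to 1.59-fold after the combination. Its last spot on electroporation 2 read 1090 where the others had a median of 127, and without it that array read 0.07. With median centring in place of loess the combination turned to -0.11.

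BBC3, which encodes the apoptosis inducer PUMA, read 20.5 to 34.5 in untreated cells and 18 to 32 in treated cells, over backgrounds of 11 to 16.5. It stood above background on 2 of 5 arrays in each channel. Its log2 ratios were 0.00, -0.12 and 0.02 after cisplatin and -0.05 and -0.03 after the combination. Of these values only that of cisplatin 2 was larger than the SD between the spots of the probe on its own array, which was 0.077 there. The limma estimates were -0.032 (SE 0.039) and -0.042 (SE 0.048).

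TP53I3, also called PIG3, encodes a quinone oxidoreductase that is linked to oxidative stress and apoptosis downstream of p53. Its 4 probes are numbered here by falling signal, and a probe's signal also depends on its sequence, so their levels are not compared. Probe 1 read 4851, 4506.5 and 3044 in untreated cells on cisplatin 1 to 3 and 3218, 3555 and 1695.5 in treated cells. On electroporation 1 and 2 it read 4164 and 4676 in untreated and 2611.5 and 1611.5 in treated cells. After normalization its log2 ratios were -0.07, -0.36 and -0.97 on the cisplatin arrays and -0.11 and -0.76 on the electroporation arrays. All 5 were below 0, and each group held both a value near 0 and a low one. On cisplatin 3 no other probe of the array had a lower ratio.

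The spots of probe 1 show how firm these values are. On cisplatin 3 its 4 spots read -0.34, -1.56, -0.81 and -1.19. On electroporation 2 the first 3 spots read -1.14, -1.05 and -0.83, and the last read -0.016 with a foreground of 14 in both channels, where the others had a median of 4941 in untreated cells. Without that spot the array read -1.005 in place of -0.76. On cisplatin 1 the spots lay between -0.32 and 0.04, and on electroporation 1 between -0.21 and 0.14. The spots of cisplatin 3 thus spread further than the 3 cisplatin arrays did, while those of cisplatin 1 and electroporation 1 lay closer together.

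The other TP53I3 probes had far less signal. Probe 2 read -0.18, 0.05 and 0.16 after cisplatin and -0.17 and -0.68 after the combination. The value of electroporation 2 came from its last spot, which read 4068 in the untreated and 409 in the treated channel where the other spots had medians of 73 and 47. Without that spot the array read -0.0066. Probe 3 read -0.06, -0.10 and -0.07, then -0.17 and -0.20, and was above background in the untreated channel of 1 array and in the treated channel of none. Probe 4 read -0.01, 0.05 and 0.13, then 0.00 and -0.03, and was never above background. On cisplatin 3, where probe 1 had its lowest value, probe 2 was above background in both channels and read above 0. Probe 3 read below 0 on all 5 arrays, as probe 1 did, but at this signal probes 3 and 4 cannot be set against it.

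**Figure D2:**
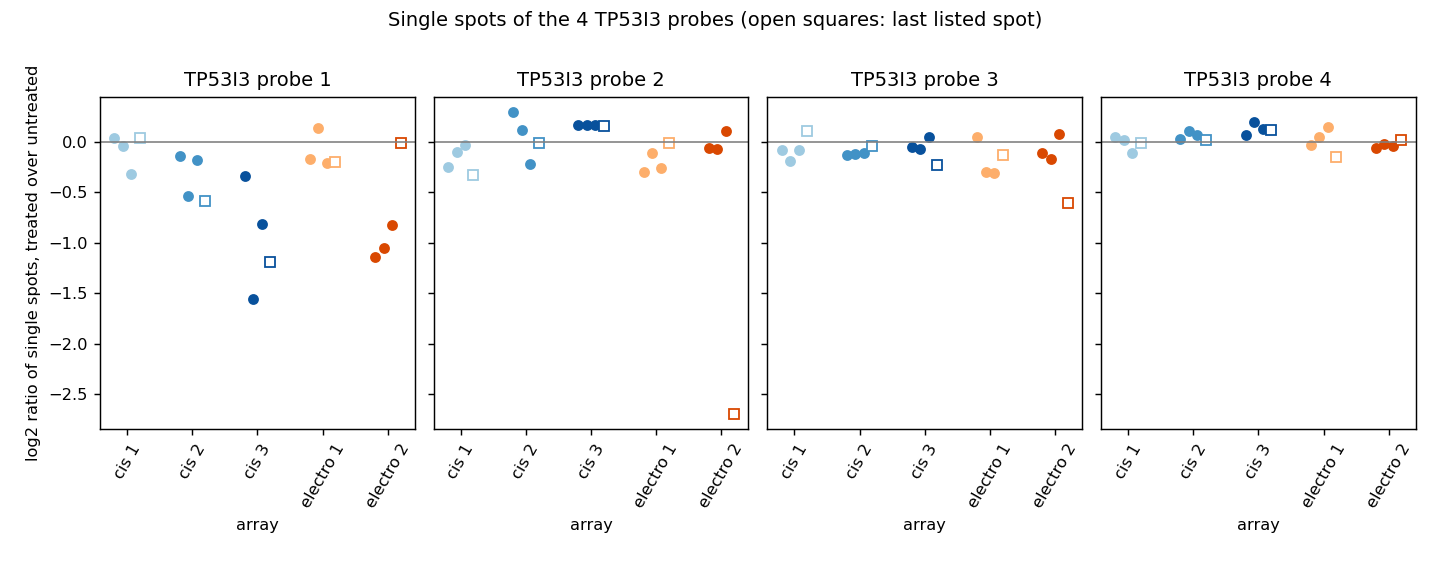
log2 ratio of treated over untreated cells for every spot of the 4 TP53I3 probes on the 5 arrays (cis, cisplatin; electro, cisplatin with electroporation), with the last listed spot of each probe as an open square. The lowest point, -2.69, is the last spot of probe 2 on electroporation 2, while the 3 other spots there lie between -0.07 and 0.11; the low values of probe 1 on cisplatin 3 and electroporation 2 are shared by several spots.

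By limma, probe 1 stood at -0.47 after cisplatin (SE 0.20, adjusted p 0.484, n = 3 arrays) and at -0.43 after the combination (SE 0.24, adjusted p 0.620, n = 2 arrays). The difference between treatments was 0.035 (SE 0.31), with an interval from 0.594- to 1.77-fold. Without the last spots of electroporation 2, probe 1 stood at -0.56 (SE 0.27) after the combination. The difference between treatments was then -0.089 (SE 0.35), so its sign changed. Probe 2 stood at 0.011 and -0.42, and the second of these read -0.088 (adjusted p 0.811) without the last spots of electroporation 2. Probe 3 stood at -0.08 (SE 0.030) and -0.19 (SE 0.036, adjusted p 0.246), the smallest adjusted p among the 13 probes, and at -0.12 (adjusted p 0.431) for the combination without those spots. The offset of 50 matters for the dim probes. Without it, probe 3 stood at -0.37 after cisplatin (0.644- to 0.929-fold, adjusted p 0.424) and at -0.86 after the combination (0.440- to 0.690-fold, adjusted p 0.0861). All but 1 of its 10 channel readings were at background. The value of the combination includes its last spot on electroporation 2, which read 80 in untreated cells where the others had a median of 28. Without the offset, probe 2 stood at -0.56 after the combination (0.4996- to 0.921-fold, adjusted p 0.454), with its deviating last spot included. Probe 1 kept -0.47 after cisplatin (0.540- to 0.968-fold, adjusted p 0.521) and -0.44 after the combination (0.517- to 1.06-fold). In the authors' deposited table, which holds log2 ratios of their own normalization, probe 1 read -0.065, -0.363 and -0.976 after cisplatin and -0.087 and -1.005 after the combination. The last of these lies closer to the value obtained here without the last spot than to that with it. For probe 2 the authors' deposited table gives -0.684 on electroporation 2, closer to the value obtained here with its last spot.

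GDF15, a stress-induced cytokine of the TGF-beta family, is a well-known direct target of p53. It was above background in both channels of every array. Untreated cells read 162.5, 168 and 80.5 on the cisplatin arrays, and treated cells 93, 148.5 and 90.5. On the electroporation arrays untreated cells read 99.5 on both and treated cells 60.5 and 59. The log2 ratios were -0.15, -0.01 and 0.18 after cisplatin and 0.01 and -0.03 after the combination. They lay on both sides of 0 in each group. The estimates were 0.0057 (SE 0.063) and -0.0079 (SE 0.078), and without the offset the intervals ran from 0.835- to 1.25-fold and from 0.781- to 1.28-fold. These intervals cover the spread between arrays only. With median centring in place of loess the estimates were -0.13 and -0.24.

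IGFBP3 encodes a secreted binding protein of insulin-like growth factors that limits their signalling. Untreated cells read 75, 68.5 and 41.5 on the cisplatin arrays and 49.5 and 58.5 on the electroporation arrays, and treated cells 51.5, 74 and 55, then 40.5 and 46. After normalization the log2 ratios were 0.10, 0.17 and 0.12 after cisplatin and 0.05 and 0.22 after the combination. All 5 were above 0, which 6.66% of all probes also showed, and the groups overlapped. The estimates were 0.13 (SE 0.043, adjusted p 0.377, n = 3 arrays) and 0.14 (SE 0.053, adjusted p 0.488, n = 2 arrays), and the difference between treatments was 0.0033 (SE 0.068). Without the offset the ratios stood at 0.28 and 0.34 on the log2 scale, with intervals from 1.01- to 1.47-fold and from 1.01- to 1.59-fold, and the adjusted p-values were 0.523 and 0.537. The authors' deposited table gives 0.014, 0.269 and 0.232 after cisplatin and 0.373 for electroporation 2, with no value for electroporation 1, where the treated channel was not above background.

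**Figure D3:**
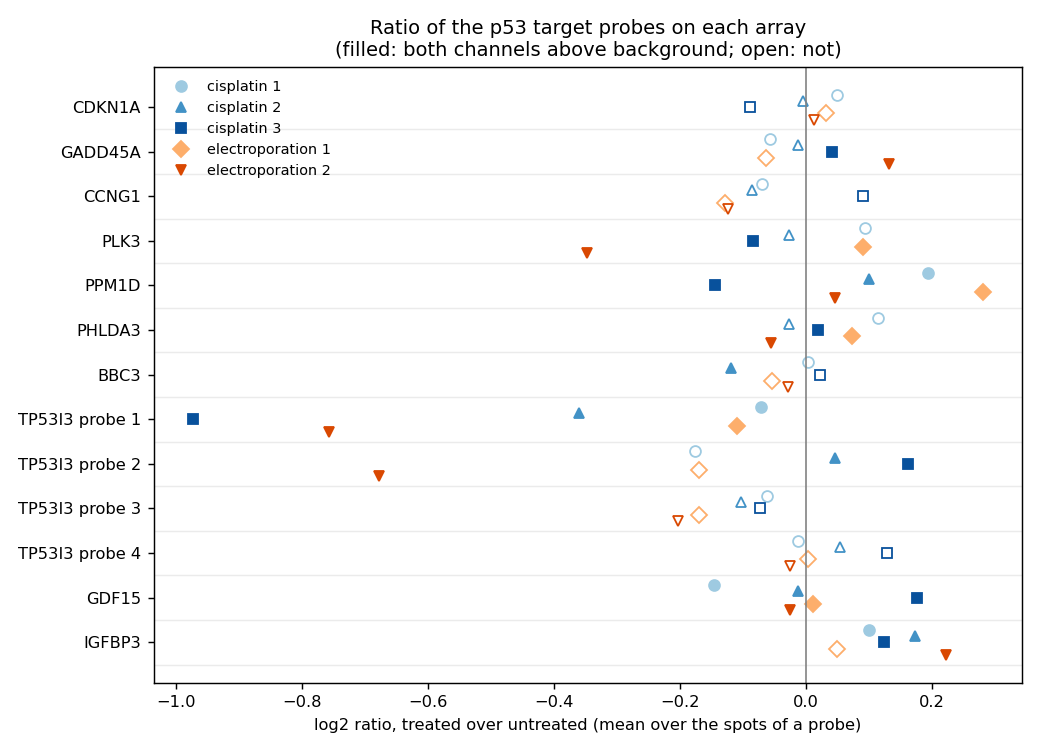
Normalized log2 ratio of treated over untreated cells (mean over the spots of a probe) for the 13 probes on each of the 5 arrays; filled symbols have both channels above background and open symbols do not. Outside TP53I3 the values lie between -0.35 and 0.28, IGFBP3 is above 0 on all 5 arrays, and the values under -0.5 all belong to TP53I3 probes 1 and 2.

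In limma's test, 0 to 3 of the 13 probes passed an unadjusted p under 0.05. Each probe is 7.69% of the 13, so counts this small are not read as a difference from the shares over all probes. After cisplatin 2 of the 13 passed (15.4%), against 337 of 3048 probes (11.1%): IGFBP3, above 0 like 4.95% of all probes, and TP53I3 probe 3, below 0 like 6.10%. After the combination 3 passed (23.1%), against 304 (9.97%): IGFBP3, above 0 like 2.99%, and TP53I3 probes 2 and 3, below 0 like 6.99%. Probe 2 had an unadjusted p of 0.353 in limma's test without the last spots of electroporation 2. Between the treatments 0 of the 13 passed, against 107 (3.51%). Below 0 on all 5 arrays were TP53I3 probes 1 and 3, which 9.42% of all probes also were. Both electroporation arrays lay below all cisplatin arrays for CCNG1 and TP53I3 probe 3 and above them for none of the 13, against 10.7% and 7.32% of all probes. For TP53I3 probe 3 this rests on 1 spot: its last spot on electroporation 2 read 80 in the untreated channel where the others had a median of 28, and without it the array read -0.067, within the cisplatin range.

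**Figure D4:**
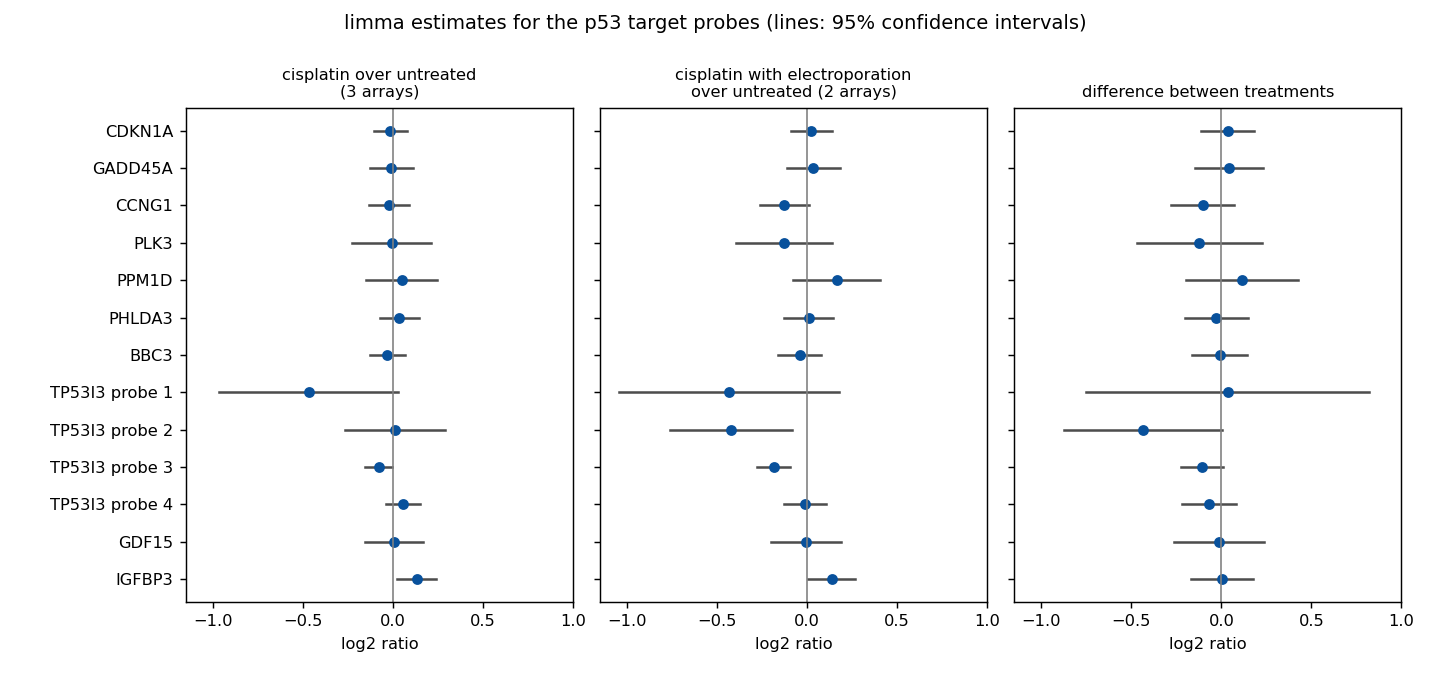
limma estimates of the log2 ratio for the 13 probes after cisplatin (3 arrays), after cisplatin with electroporation (2 arrays) and for the difference between treatments, with 95% confidence intervals as lines. The interval of TP53I3 probe 1 is the widest, from -0.97 to 0.03 after cisplatin, and no probe passed the test adjusted over all 3048 probes.

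The widths of the intervals show what the arrays could resolve. The median interval of the 13 probes reached 0.11 on the log2 scale to either side after cisplatin, 0.14 after the combination and 0.17 for the difference. The offset of 50 draws dim ratios toward 0 and narrows these intervals with them. The intervals without the offset, given above for single genes, are wider, except those of the bright TP53I3 probe 1, which are narrower. After cisplatin its log2 interval ran from -0.97 to 0.029 with the offset and from -0.89 to -0.047 without it. For CDKN1A, CCNG1 and TP53I3 probes 3 and 4, for BBC3 on 4 of the 5 arrays and for GADD45A on 3, a bound from either setting describes a ratio with at least 1 channel at or near background. The same holds for PLK3 and PHLDA3 on cisplatin 1 and 2. It also holds for TP53I3 probe 2 on cisplatin 1 and electroporation 1, and for IGFBP3 on electroporation 1.

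Other genes of the pathway were described from 4 lists, on the brightest probe of each measured gene. The lists share some genes. For example, PCNA is counted among genes activated by p53 and among genes lowered after its activation, and E2F1 among regulators and lowered genes. Of 54 further genes known to be activated by p53, 21 were measured and 11 were above background in at least 1 channel on every array. None of the 21 was called by limma in either direction. At an unadjusted p under 0.05, 0 were above 0 and 1 below after cisplatin, and 0 in either direction after the combination. Over all probes, dim ones included, the shares were 4.95% above and 6.10% below after cisplatin and 2.99% above and 6.99% below after the combination. The median log2 ratio was 0.012 after cisplatin and -0.0055 after the combination. CD82, a tetraspanin known to suppress metastasis, read -0.37, -0.21 and -0.22 after cisplatin and -0.41 and -0.05 after the combination. All 5 of its arrays were below 0, and its cisplatin estimate was -0.26 (SE 0.076, adjusted p 0.320). The apoptosome protein APAF1 stood at 0.12 (SE 0.059) after cisplatin and the death receptor TNFRSF10B at 0.10 (SE 0.059) after the combination. The phosphatase DUSP5 stood at 0.10 after cisplatin and -0.11 after the combination, a difference of -0.21 (SE 0.064, adjusted p 0.994). Its electroporation arrays lay below all its cisplatin arrays, as they did for 10.7% of all probes. TP53AIP1, an apoptosis-inducing protein of mitochondria, stood at -0.08 and 0.09.

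Of 29 genes for p53 family members and regulators, 14 were measured and 8 were above background. None was called by limma, and 1 below 0 had an unadjusted p under 0.05 after each treatment, against 6.10% and 6.99% of all probes. Their medians were -0.018 and -0.012. The p53 relative TP73 stood at -0.14 (SE 0.076) with cisplatin and -0.12 (SE 0.093) with the combination, and the repair kinase PRKDC at -0.11 (SE 0.042) and -0.025 (SE 0.051). The checkpoint clamp subunit RAD9A stood at -0.12 and 0.16, and the damage kinase ATM at 0.10 and 0.0017. The transcription factor E2F1 stood at -0.27 (SE 0.054, adjusted p 0.276) after the combination, and at -0.12 without the last 2 of its 8 spots on electroporation 2. CDKN2A, whose ARF product protects p53 from degradation, was not above background on every array and stood at 0.017 and 0.0074.

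An active p53 response is known to lower cell cycle genes through p21, the RB family and the DREAM complex. Of 33 such genes 27 were measured and 22 were above background, and limma called none. The medians were 0.0038 after cisplatin and -0.028 after the combination, against -0.0025 and -0.0088 over all genes. At an unadjusted p under 0.05, 5 were above 0 and 3 below after cisplatin, and 2 above and 5 below after the combination. Of all probes 4.95% and 6.10%, then 2.99% and 6.99%, did so, each a smaller share than in the list, most of whose genes were above background. Mitotic cyclin B1, CCNB1, read -0.29, -0.43 and -0.17, then -0.41 and -0.43, with estimates of -0.30 (SE 0.053, adjusted p 0.219) and -0.42 (SE 0.065, adjusted p 0.162). CKS2, a subunit that binds cyclin-dependent kinases, stood at -0.38 (SE 0.081) after cisplatin. On the other side of 0, cyclin F (CCNF) stood at 0.48 (SE 0.066, adjusted p 0.180) and the phosphatase CDC25C at 0.35 (SE 0.11). The mitotic kinase PLK1 read 0.019 on electroporation 1 and -1.09 on electroporation 2. The mitotic kinase AURKB differed between treatments by -0.36 (SE 0.12) and thymidylate synthase TYMS by -0.22 (SE 0.062), both at an adjusted p of 0.994. The list therefore held members on both sides of 0.

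Of 57 family relatives and binding partners of the 10 genes, 46 were measured and 26 were above background. Limma called none, and at an unadjusted p under 0.05, 1 was above 0 and 4 below after cisplatin, and 2 above and 4 below after the combination, with 11.1% and 9.97% of all probes in either direction. Their medians were -0.0051 and 0.0021. NQO1, another quinone oxidoreductase, read -0.60, -0.49 and 0.05 after cisplatin and -0.97 and -0.99 after the combination. Its estimates were -0.35 (SE 0.12, adjusted p 0.423) and -0.98 (SE 0.15, adjusted p 0.162). Both electroporation arrays lay below all cisplatin arrays for NQO1, as they did for 10.7% of all probes. Among relatives of IGFBP3, IGFBP2 stood at -0.25 (SE 0.049, adjusted p 0.237) and -0.23 (SE 0.060) and was below 0 on all 5 arrays, so the 2 binding proteins had opposite signs. The ligand IGF1 stood at -0.20 (SE 0.075) and -0.04 (SE 0.091). IGFALS, which holds IGFBP3 complexes in the circulation, stood at -0.15 (SE 0.22) and -0.81 (SE 0.26) on the brighter of its 2 probes.

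**Figure D5:**
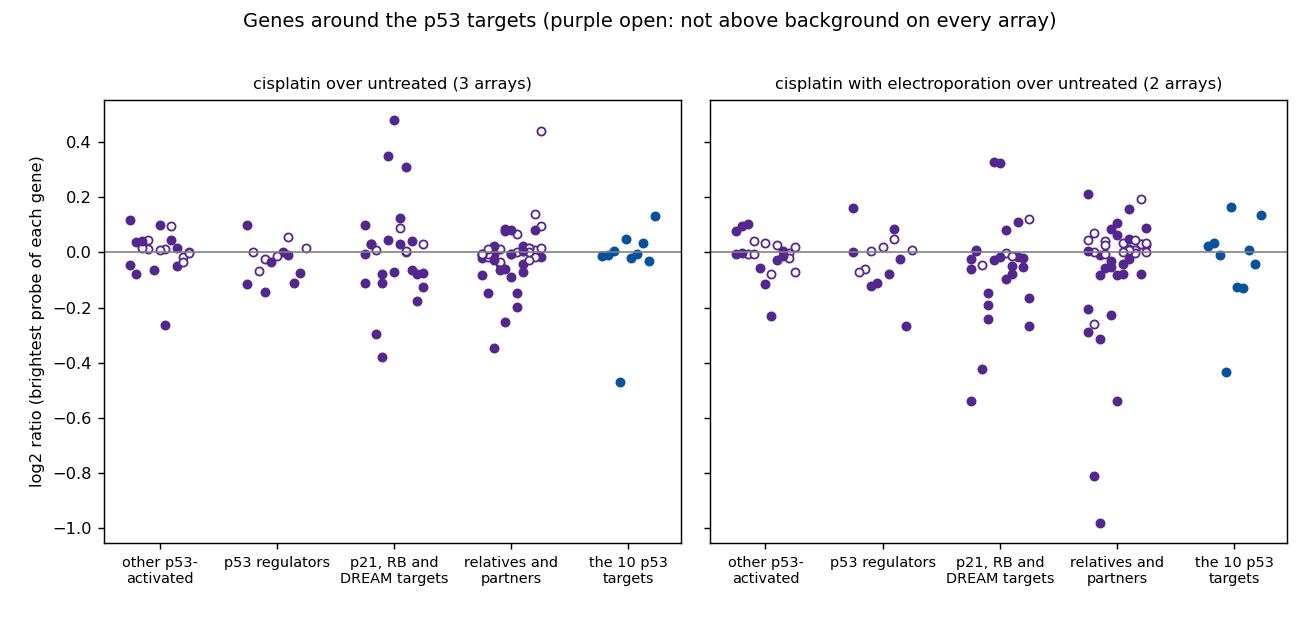
log2 ratio (limma estimate, brightest probe of each gene) of the genes in the 4 lists and of the 10 p53 targets, after cisplatin on the left and after cisplatin with electroporation on the right; open purple points are genes not above background in at least 1 channel on every array. The 10 targets lie between -0.47 and 0.16, and the lowest point, -0.98 after the combination, is NQO1.

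Across the 5 arrays, the genes whose log2 ratios lay closest to those of TP53I3 probe 1 were ID3, NR0B2 and RPL7, at Euclidean distances of 0.38, 0.57 and 0.59, among 1244 genes above background. ID3, an inhibitor of basic helix-loop-helix factors, read -0.09, -0.12 and -0.70 after cisplatin and -0.19 and -0.68 after the combination. As for TP53I3, its low values were on cisplatin 3 and electroporation 2, and the points share those arrays. This follows from choosing genes by closeness over the same 5 ratios.

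The promoters of TP53I3 and IGFBP3, the genes with at least 1 probe on the same side of 0 on all 5 arrays, were searched for the p53 element and are shown here. They run from 250 bases before to 50 bases after the annotated start and are taken from RefSeq (GRCh38.p14), in a promoter table that was matched for 8 of the 10 genes. TP53I3 lies on the minus strand at chr2:24084785-24085084 and IGFBP3 on the minus strand at chr7:45921223-45921522. Nothing is in capitals, because the consensus decamer of the p53 response element was found in neither window, nor in those of the other 6 genes. This decamer is RRRCWWGYYY, with R for A or G, W for A or T and Y for C or T, searched on both strands. Of all 35116 promoter windows of this length, 6.632% held it. No match says only that these letters are not in these windows.
TP53I3: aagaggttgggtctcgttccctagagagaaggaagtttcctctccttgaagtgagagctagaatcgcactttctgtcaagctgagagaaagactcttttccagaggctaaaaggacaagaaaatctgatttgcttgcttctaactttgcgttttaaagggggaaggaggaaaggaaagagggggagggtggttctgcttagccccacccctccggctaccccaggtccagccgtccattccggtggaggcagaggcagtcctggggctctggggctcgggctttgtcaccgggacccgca
IGFBP3: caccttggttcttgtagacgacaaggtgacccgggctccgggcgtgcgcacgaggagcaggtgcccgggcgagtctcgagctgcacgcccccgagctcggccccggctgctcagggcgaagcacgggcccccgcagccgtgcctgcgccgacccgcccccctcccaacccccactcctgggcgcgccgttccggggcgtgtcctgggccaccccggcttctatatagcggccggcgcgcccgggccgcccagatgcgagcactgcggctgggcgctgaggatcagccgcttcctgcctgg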

How the data were processed

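The deposited scanner files hold, per the file headers, raw intensities of 12788 spots in both channels (median and mean foreground, local background), not normalized. The files number the channels without naming dyes; the labels' numbering was used, and the authors' ratios correlated with channel 2 over channel 1 at 0.908 to 0.968. A deposited table holds the authors' log2 ratios for 2560 probes, 1281 of them with a value on every array, used as an alternative; how the authors normalized it is not given in the sources used here. Gene symbols came from the platform annotation, which named 2192 of 3048 probes with 1 gene.

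Median foregrounds were corrected with normexp (offset 50), normalized by loess within arrays (span 0.3) and averaged over the spots of a probe in limma 3.58.1 (R 4.3.3). One limma model over 5 arrays tested both group means and their difference (3 residual degrees of freedom, two-sided, Benjamini-Hochberg over 3048 probes, threshold 0.05). The procedure was tested on simulated data. The number of arrays limits the precision. The 21 alternatives covered background, normalization, filters, spots, the authors' table, variance models, a replicate block and left-out arrays. Members, lists and tests were chosen with earlier results of these data known. From each list the text names the 3 genes with the largest ratio, in size, of each comparison among those above background in at least 1 channel on every array, or a selection of them. It names as well CDKN2A and the 3 genes closest to the member probe with the largest mean ratio.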

Additional observations from a re-analysis of the deposited data

Results flagged for a closer look

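For DUSP5, a phosphatase of mitogen-activated protein kinases, every cisplatin array was above 0 (0.12, 0.02 and 0.16) and both electroporation arrays were below it (-0.07 and -0.16), with a difference of -0.21 on the log2 scale. For TYMS, which makes thymidylate for DNA synthesis, the cisplatin arrays read 0.20, 0.08 and 0.10 and the electroporation arrays -0.13 and -0.06, a difference of -0.22. The adjusted p of both differences was 0.994 by limma, and 10.7% of all probes had both electroporation arrays below all cisplatin arrays. With median centring in place of loess the cisplatin values turned to -0.07 for DUSP5 and -0.05 for TYMS.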

How the results depend on the processing

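None of the 13 probes was called in any comparison under any of the 21 alternatives that gave it a value, 18 to 21 for each probe and comparison. Of 761 values over 39 results, 115 moved by more than the spread between arrays and 646 by less, and 99 of the 761 changed sign. IGFBP3 stayed above 0 in both comparisons with untreated cells, between 0.07 and 0.33 after cisplatin and between 0.04 and 0.43 after the combination, and TP53I3 probe 1 stayed below 0, between -0.97 and -0.22 and between -0.76 and -0.11. TP53I3 probe 2 stood at -0.68 after the combination without electroporation 1, where electroporation 2 stands alone with its deviating last spot included. Without that spot electroporation 2 read -0.0066 for this probe. For TP53I3 probe 1 the cisplatin value was -0.22 without cisplatin 3 and -0.97 without cisplatin 1 and 2, and the combination read -0.76 without electroporation 1 and -0.11 without electroporation 2. Leaving out cisplatin 1 and 2 together, or the last 1 of 4 or 2 of 8 spots of a probe on electroporation 2, was added after the data were seen.

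After the combination, the list of relatives and partners held 1 called gene without background correction, with median centring, with only probes above background and in the authors' table. That gene was NQO1, except with median centring, where it was CDKN2D. The list lowered through p21 held 1, CCNB1, without background correction. With single arrays left out, the relatives held 0 to 3 calls after the combination and 0 to 3 for the difference, and the list lowered through p21 held 0 to 1 in both. These include NQO1 without cisplatin 3, and PLK1, CDKN1C and AKT1 without electroporation 1, where electroporation 2 stands alone and is taken to vary as the cisplatin group does. Over all probes, 93 were then called after the combination and 47 for the difference. Median centring called 35 after the combination, testing only probes above background 11, no background correction 10 and 4 after cisplatin, the authors' values 8 and 1, scale normalization 1 and leaving out cisplatin 3 called 1. The causes were not tested.

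The replicate numbers are not said to pair the arrays. Deviations from the group means correlated at 0.336 for number 1 and 0.12 for number 2. For cisplatin 3 and electroporation 2, which share no number, they correlated at 0.282. With 2 electroporation arrays the deviations of that group mirror each other, so these values single out no pairing. With the number as a block, 0 of the 13 probes were called in each of the 3 comparisons, as without it. Signal over background limits CDKN1A, BBC3, CCNG1 and TP53I3 probes 3 and 4 on all or most arrays, GADD45A on 3, and PLK3 and PHLDA3 on cisplatin 1 and 2. In the treated channel it also limits TP53I3 probe 2 on cisplatin 1 and electroporation 1, and IGFBP3 on electroporation 1.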
